A study of Homo sapiens with 8 samples.

Results

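ATF3, ATF4, ATF5, DDIT3, CEBPB, CEBPG and JDP2 are bZIP transcription factors of the integrated stress response or its close binding partners, and their transcripts were followed in Saos-2 cells treated with a compound labelled Prima. The set holds 7 of the 19775 genes that had a probe set of their own on the array. Every probe set that the platform annotation maps to exactly 1 gene, that gene being one of these, was taken, which gave 14 probe sets. Of these, 12 passed a filter on dim signals and were tested, and both that did not pass belong to ATF5. DDIT3, ATF4 and CEBPB have 1 probe set each, CEBPG and JDP2 have 2, ATF3 has 3 and ATF5 has 4.

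The cells are Saos-2, an established osteosarcoma line of human origin. The groups were cells treated with the compound for 12 h (2 arrays, replicates 1 and 3), cells treated for 6 h (3 arrays, replicates 1, 2 and 3) and untreated cells (3 arrays, replicates 1, 2 and 3). The labels give no dose, name no vehicle for the untreated cells and do not say whether replicates were separate cultures, and the p-values therefore cover the variation among these arrays, which may be technical. All groups share 1 cell line and its genotype.

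In the integrated stress response, kinases that sense amino acid shortage, endoplasmic reticulum stress, heme deficiency or double-stranded RNA phosphorylate the translation factor eIF2. General translation then slows, while upstream reading frames let the ATF4 and ATF5 messages be translated better, so the protein of these factors can change without the transcript. ATF4 pairs with C/EBP family proteins such as CEBPB and CEBPG at C/EBP-ATF composite elements and activates genes of amino acid supply, redox balance and further factors, among them DDIT3 (also called CHOP) and ATF3. The arrays measured transcripts only.

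The promoter letters show where the binding elements of this family lie upstream of the members themselves. RefSeq windows on GRCh38.p14 matched all 7 genes, with 16 start sites in all, and the 250 bases upstream of each were searched on both strands. The C/EBP-ATF composite element, searched as TGATGNAA, occurred in 3 of the 16 windows, belonging to 3 genes, and in 3.14% of the 35116 windows of all genes. The AP-1 element TGANTCA, which JDP2, ATF3 and their JUN partners can bind, occurred in 3 windows of 2 genes, and in 6.57% of all windows. The DDIT3 windows overlap and hold the same AP-1 site, which is thus counted in both. Those of ATF4 overlap as well, so the windows are not independent. The cyclic AMP response element TGACGTCA was found in 0 of the 16 windows and in 1.65% of all. The C/EBP element TTGCNNAA was found in 1 window, and in 9.05% of all, and the endoplasmic reticulum stress element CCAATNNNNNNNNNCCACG in 0, and in 0.074% of all. A match is a stretch of letters and not a measured binding site, and none of the motifs overlaps another in the windows printed here.
Capitals mark the match in the following windows, which are 5′ to 3′ on the gene's strand and end 1 base before the start site.
CEBPG, second start, chr19:33373863-33374112, plus strand, composite element TGATGCAA at 42 to 35 bases before the start: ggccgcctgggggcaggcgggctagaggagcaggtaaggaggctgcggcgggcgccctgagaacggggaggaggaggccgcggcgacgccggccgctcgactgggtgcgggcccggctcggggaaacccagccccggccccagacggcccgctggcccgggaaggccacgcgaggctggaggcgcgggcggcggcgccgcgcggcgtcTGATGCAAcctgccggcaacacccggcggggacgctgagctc
JDP2, second start, chr14:75427772-75428021, plus strand, composite element TGATGCAA at 16 to 9 bases before the start: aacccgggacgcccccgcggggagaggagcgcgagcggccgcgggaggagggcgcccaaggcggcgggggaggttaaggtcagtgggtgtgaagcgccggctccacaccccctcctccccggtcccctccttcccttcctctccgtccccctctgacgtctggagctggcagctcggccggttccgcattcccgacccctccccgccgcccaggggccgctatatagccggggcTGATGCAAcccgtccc
ATF3, first start, chr1:212565157-212565406, plus strand, composite element TGATGGAA at 191 to 184 bases before the start: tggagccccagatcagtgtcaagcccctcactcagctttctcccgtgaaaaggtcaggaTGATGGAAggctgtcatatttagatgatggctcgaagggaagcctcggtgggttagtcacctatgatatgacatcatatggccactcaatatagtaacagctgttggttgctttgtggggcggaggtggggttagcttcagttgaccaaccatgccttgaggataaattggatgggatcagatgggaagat
DDIT3, second start, chr12:57520518-57520767, minus strand, AP-1 element TGACTCA at 238 to 232 bases before the start: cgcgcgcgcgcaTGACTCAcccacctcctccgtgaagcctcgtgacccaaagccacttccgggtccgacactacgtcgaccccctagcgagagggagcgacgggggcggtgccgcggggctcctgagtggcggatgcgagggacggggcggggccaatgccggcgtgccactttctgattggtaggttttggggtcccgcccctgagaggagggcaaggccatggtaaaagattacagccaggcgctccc
CEBPG and JDP2 carry the same 8 letters, and ATF3 differs from them inside the free position and so matches the same pattern. ATF5, whose window is not printed, holds TGACTCA at 188 to 182 bases and the C/EBP element at 104 to 97 bases before its first start.

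Values are MAS5 signals on a linear scale, which the authors' processing set to a common trimmed mean on every array. Replicate 2 arrays stood apart. The median signal was 47.5 on 6 h replicate 2 and 50.9 on untreated replicate 2, against 14.2 to 25.0 on the other 6 arrays, and 0.0714% and 0.0623% of signals on those arrays lay at or under the floor of 2.39, against 6.27% to 20.8% on the others. No 12 h array carries the number 2, so each comparison of 12 h with another group is unbalanced in it. The ratio of the 3′ to the 5′ ACTB control signal, which rises as RNA is degraded, stood at 2.29 on 12 h replicate 1 and 1.12 to 1.73 on the other 7 arrays. Of 8 osteoblast lineage markers, 7 had a probe set of their own and were tested, with a summed signal of 6164 to 9090 over the arrays, while 3 of 9 markers of other cell types passed the filter and all 9 summed to 229 to 595. COL1A1, SPARC and RUNX2 made up most of the osteoblast sum. IBSP and COL1A2 were dim, with group means of 46.2 to 61.8 and 45.9 to 81.0. The epithelial marker EPCAM had group means of 156 to 186, above both. Replicate numbers were read as pairing the arrays, which the labels do not state. Differences within a number, or fits with the number as a block, are given beside the group values of the members.

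No member passed the test in any comparison, and the values below are therefore a description with their errors. ATF4 signal was higher on both 12 h arrays than on any untreated array, with a fitted fold of 1.39 and a 95% interval that includes no difference. The brightest probe sets of CEBPG and ATF3 had fitted 12 h folds of 1.45 and 1.60, while within replicates 1 and 3 their log2 differences were 0.32 and 0.26 for CEBPG and 0.41 and 0.30 for ATF3. The other CEBPG probe set had a fitted 12 h fold of 0.98, and the other ATF3 probe sets had fitted 12 h folds of 0.59 and 0.54. DDIT3 had its highest group mean at 6 h and its lowest at 12 h. CEBPB had log2 differences from untreated of 0.24 at 12 h and -0.03 at 6 h, and the brightest JDP2 probe set ranged from 1.22 to 154 among the untreated arrays alone.

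ATF4 (200779_at) encodes the factor on which the response converges. Its signal was 1464 and 1427 on the 12 h arrays (replicates 1 and 3), 1210.3, 966 and 1233 on the 6 h arrays (replicates 1, 2 and 3) and 1155, 825 and 1179 on the untreated arrays (replicates 1, 2 and 3). Both 12 h arrays lay above all 3 arrays of each other group, and the 6 h and untreated arrays overlapped, with the array numbered 2 lowest in each. Means were 1446 ± 26.0 at 12 h (SD, n = 2), 1136 ± 148 at 6 h (SD, n = 3) and 1053 ± 198 in untreated cells (SD, n = 3). The log2 difference of 12 h from untreated was 0.48 ± 0.26 (SE), with a 95% interval of -0.09 to 1.04. Within replicate 1 it was 0.34 and within replicate 3 it was 0.28. With the replicate number as a block the difference was 0.34 ± 0.13 (SE), with a 95% interval of 0.04 to 0.64, so the block's interval lay above 0 while its adjusted p did not pass. The difference of 6 h from untreated was 0.12 ± 0.23 (SE), and that of 12 h from 6 h was 0.36 ± 0.26 (SE).

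DDIT3 (209383_at) encodes CHOP, a target of ATF4 known for its part in cell death after prolonged stress. Its signal was 52.2 and 91.3 on the 12 h arrays, 94.9, 128 and 111 on the 6 h arrays and 64.7, 62.4 and 113 on the untreated arrays. Both 12 h arrays lay below all 6 h arrays, and the 6 h arrays lay above untreated replicates 1 and 2 but not all above replicate 3. Means were 71.7 ± 27.6 at 12 h (SD, n = 2), 111 ± 16.4 at 6 h (SD, n = 3) and 80.2 ± 28.8 in untreated cells (SD, n = 3). The log2 difference was 0.52 ± 0.39 (SE, 95% interval -0.33 to 1.37) for 6 h against untreated and -0.68 ± 0.44 (SE, 95% interval -1.63 to 0.27) for 12 h against 6 h. Within replicate numbers 1, 2 and 3 the 6 h difference from untreated was 0.55, 1.03 and -0.04, so replicate 3 showed none of it. The 12 h difference from 6 h was -0.86 in replicate 1 and -0.28 in replicate 3. The 12 h difference from untreated was -0.16 ± 0.44 (SE), and its sign depended on the scaling. It was 0.23 after quantile normalization, where the median of all probe sets was 0.06. Centring each array on its median gave 0.42 for DDIT3, but it moved the median of all probe sets to 0.59, so DDIT3 lay below that median.

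ATF3, another target of ATF4, is an early stress factor that acts mostly as a repressor. Its probe set 202672_s_at had 121 and 139.7 on the 12 h arrays, 90.0, 103 and 109 on the 6 h arrays and 91.5, 52.0 and 113 on the untreated arrays. Both 12 h arrays were above all others, and untreated replicate 2 was lowest. The log2 difference of 12 h from untreated was 0.68 ± 0.41 (SE, 95% interval -0.21 to 1.57), a value that also takes in untreated replicate 2. Within replicates 1 and 3 it was 0.41 and 0.30. The difference of 6 h from untreated was 0.30 ± 0.37 (SE), and within numbers it was -0.02, 0.99 and -0.06, so replicate 2 alone made it positive.

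The other ATF3 probe sets did not follow this order. Probe set 1554980_a_at had 34.4 and 36.6 at 12 h, 54.4, 152 and 30.5 at 6 h and 57.0, 131 and 29.5 in untreated cells. Its highest values were the replicate 2 arrays at 6 h and in untreated cells, and the 12 h group has no array of that number. Its 12 h difference from untreated was -0.77 ± 0.73 (SE) without the block and -0.17 ± 0.39 (SE) with it. Within replicates 1 and 3 it was -0.73 and 0.31. Probe set 1554420_at had 7.33 and 14.9 at 12 h, 27.6, 78.9 and 10.6 at 6 h and 22.2, 49.2 and 6.78 in untreated cells, again highest on the replicate 2 arrays. Its 12 h difference from untreated was -0.90 ± 1.17 (SE) without the block and -0.20 ± 0.78 (SE) with it. Within replicates 1 and 3 it was -1.60 and 1.14. For both probe sets the replicates thus differed in sign, and with the block neither difference exceeded its error. Without the block the difference of 1554980_a_at was only slightly larger than its error, and that of 1554420_at was smaller than its own.

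JDP2 encodes a repressor that pairs with JUN proteins, ATF3 and CHOP. Its probe set 239085_at had 46.5 and 7.83 on the 12 h arrays, 22.0, 203 and 3.97 on the 6 h arrays and 30.4, 154 and 1.22 on the untreated arrays. Replicate 2 was highest and replicate 3 lowest in every group that holds them, and untreated replicate 3 was under the floor. The 12 h difference from untreated was -0.23 ± 1.74 (SE), and 1.21 ± 0.60 (SE) with the replicate block. Within replicates 1 and 3 it was 0.61 and 1.71. Probe set 226267_at had 6.79 and 38.5 at 12 h, 27.5, 26.0 and 33.6 at 6 h and 9.90, 13.9 and 21.6 in untreated cells. All 3 of its 6 h arrays lay above all untreated arrays. Its 6 h difference from untreated was 1.00 ± 0.91 (SE, 95% interval -0.96 to 2.97), and 1.47, 0.90 and 0.64 within replicates 1, 2 and 3.

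ATF5 encodes a factor whose translation is controlled like that of ATF4 and which serves the mitochondrial stress response. Its brightest probe set, 204998_s_at, had 114 and 78.8 on the 12 h arrays, 50.7, 135 and 58.8 on the 6 h arrays and 68.9, 114 and 42.0 on the untreated arrays. The groups overlapped, with replicate 2 highest where it was measured. The 12 h difference from untreated was 0.45 ± 0.55 (SE, 95% interval -0.73 to 1.63) without the block and 0.85 ± 0.34 (SE, 95% interval 0.09 to 1.61) with it. Within replicates 1 and 3 it was 0.72 and 0.91. The 6 h difference was 0.09 ± 0.49 (SE). Probe set 204999_s_at had 40.9 and 25.2 at 12 h, 3.93, 29.4 and 32.7 at 6 h and 25.0, 24.4 and 21.8 in untreated cells. Both its 12 h arrays were above all untreated arrays, at 25.2 the lower of them close to the highest untreated value of 25.0, and the difference was 0.44 ± 1.03 (SE), or 0.71 in replicate 1 and 0.21 in replicate 3. The untested probe sets 217389_s_at and 230938_x_at ran from 3.02 to 77.0 and from 3.67 to 54.7 over the 8 arrays.

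**Figure D1:**
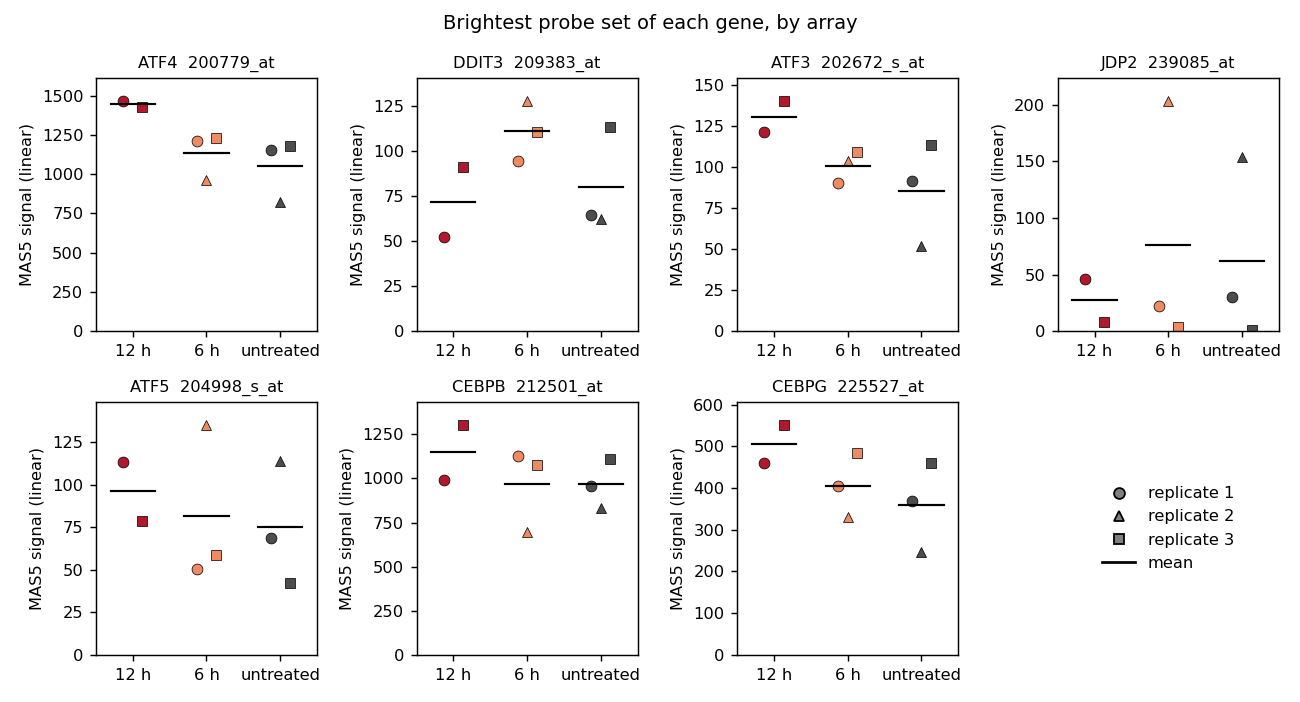
MAS5 signal (linear axis from 0) of the brightest probe set of each gene on each array, with 12 h, 6 h and untreated from left to right, marker shape for the replicate number and a bar for the group mean. For ATF4 both 12 h arrays lie above all others, while for JDP2 the replicate 2 arrays at 203 and 154 stand far above the rest.

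**Figure D2:**
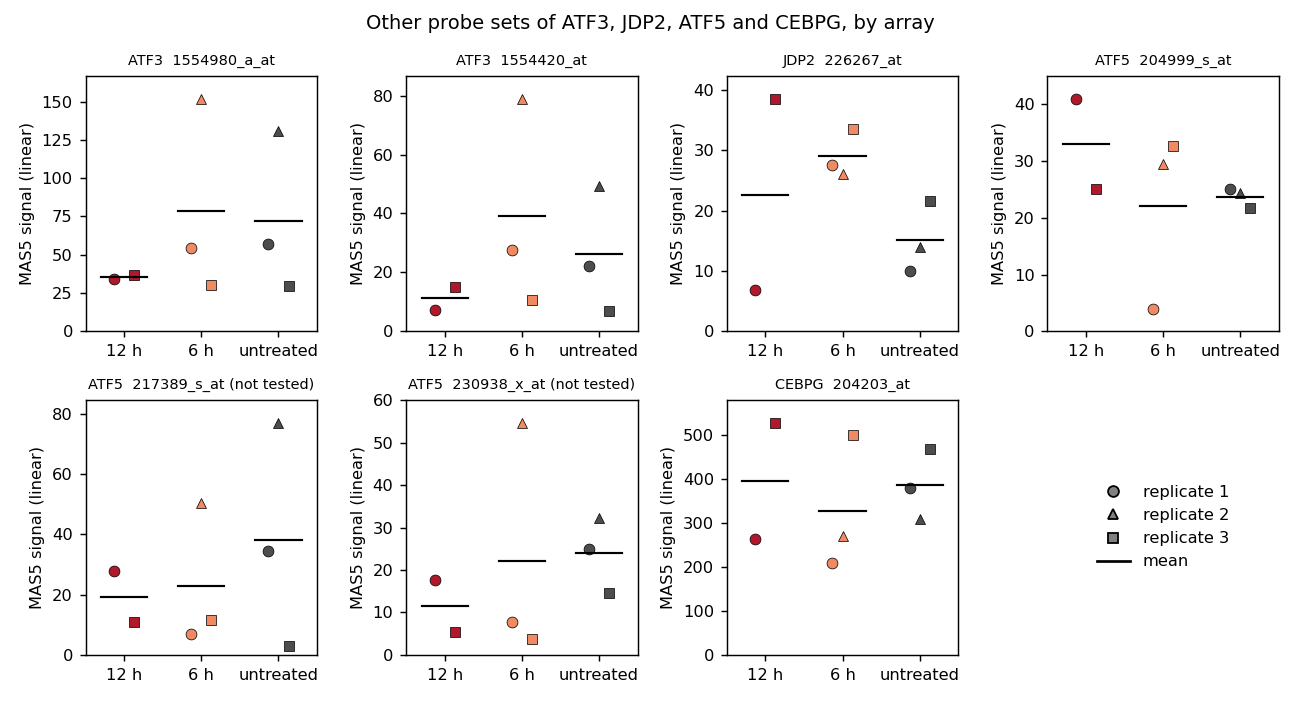
MAS5 signal (linear axis from 0) of the remaining probe sets of ATF3, JDP2, ATF5 and CEBPG on each array, drawn in the same way. The ATF3 probe sets 1554980_a_at and 1554420_at are highest on the replicate 2 arrays, at 152 and 78.9 for 6 h and 131 and 49.2 for untreated.

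CEBPB and CEBPG encode C/EBP proteins that pair with ATF4 and CHOP. CEBPB (212501_at) had 994 and 1302 on the 12 h arrays, 1127, 695 and 1076 on the 6 h arrays and 958, 835 and 1111 on the untreated arrays, and all groups overlapped. Its difference from untreated was 0.24 ± 0.29 (SE, 95% interval -0.38 to 0.86) at 12 h and -0.03 ± 0.26 (SE) at 6 h. With the block the 12 h difference was 0.08 ± 0.17 (SE), and within replicates 1 and 3 it was 0.05 and 0.23. CEBPG (225527_at) had 459 and 551 on the 12 h arrays, 404, 329 and 483 on the 6 h arrays and 369, 247 and 459 on the untreated arrays. Its lower 12 h value, 458.8, and its highest untreated value, 459.05, all but coincide. The 12 h difference was 0.54 ± 0.32 (SE, 95% interval -0.16 to 1.23), a value that also takes in untreated replicate 2, at 247. Within replicates 1 and 3 it was 0.32 and 0.26. Its 6 h difference was 0.21 ± 0.29 (SE), and 0.13, 0.42 and 0.07 within replicates 1, 2 and 3. The other CEBPG probe set, 204203_at, had 263 and 528 at 12 h, 208, 271 and 501 at 6 h and 379.9, 309 and 468 in untreated cells. Replicate 3 was highest in every group on this probe set, and its 12 h difference from untreated was -0.03 ± 0.41 (SE). Within replicates 1 and 3 that difference was -0.53 and 0.17.

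Over all 27306 probe sets tested, limma called 0 at an adjusted p under 0.05 in 12 h against untreated, in 6 h against untreated and in 12 h against 6 h, which is 0% in each. At an unadjusted p under 0.05 there were 221, 172 and 243, of which 0 were members' in any comparison. With the replicate block limma also called 0, with 791, 1201 and 827 passing 0.05 before adjustment. Array weights gave 0 calls and 874, 589 and 272 at that unadjusted level. With the block, 2 member probe sets were among those 791, ATF4 200779_at (unadjusted p = 0.0324) and ATF5 204998_s_at (unadjusted p = 0.0320, the block's fit in limma), and 0 were among the others. The median standard error of a log2 difference was 0.50 for 12 h and 0.45 for 6 h against untreated.

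Complete separation of the groups was also compared with its background. At 12 h every array lay above every untreated array for 3 of the 12 tested member probe sets, those of ATF4, ATF3 202672_s_at and ATF5 204999_s_at, against 7.57% of all probe sets tested. Every array lay below in 0 of 12, against 6.54% of all. At 6 h every array lay above in 1 of 12, JDP2 226267_at, against 1.96%, and below in 0 of 12, against 1.63%. Between 12 h and 6 h every 12 h array lay above in 2 of 12, ATF4 and ATF3 202672_s_at, against 5.46%, and below in 1 of 12, DDIT3, against 6.38%. With so few members these counts are a description only, and the comparisons of 12 h and 6 h with untreated share the untreated arrays. By sign alone, 7, 9 and 7 of the 12 tested probe sets had a difference above 0 in 12 h against untreated, 6 h against untreated and 12 h against 6 h, beside 50.4%, 51.2% and 49.3% of all probe sets tested.

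**Figure D3:**
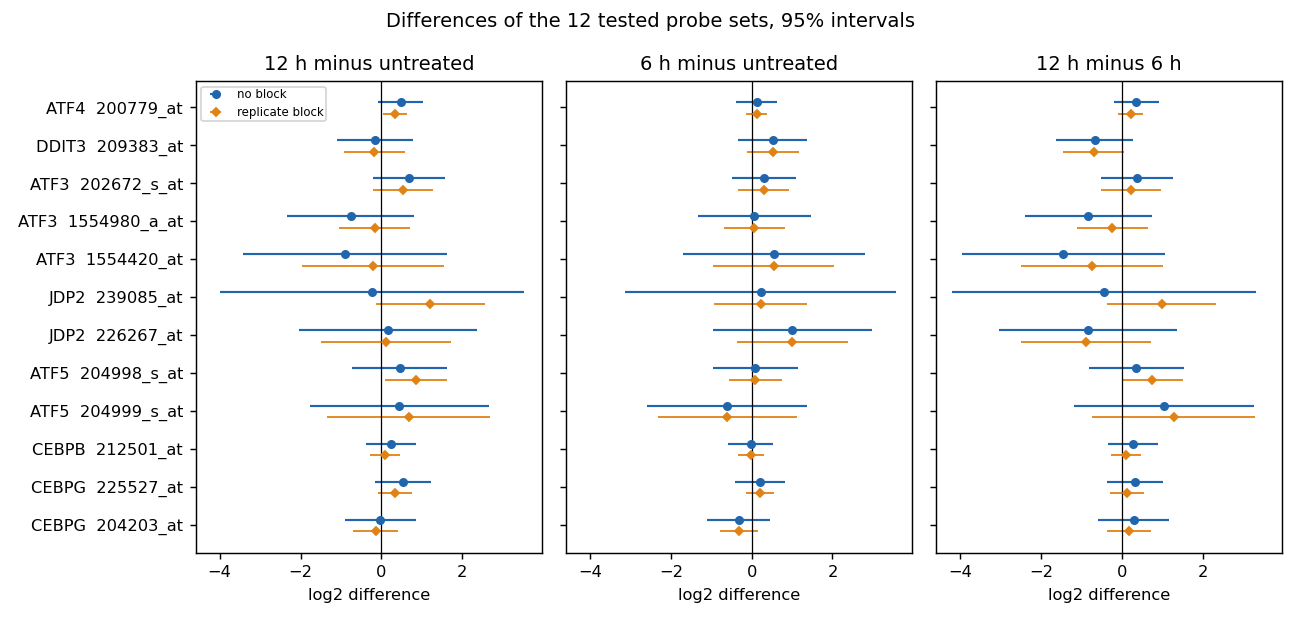
Log2 differences (horizontal axis) of the 12 tested probe sets with 95% intervals, for 12 h minus untreated, 6 h minus untreated and 12 h minus 6 h, without and with the replicate number as a block. Without the block every interval includes 0, and with it the 12 h intervals of ATF4 (0.04 to 0.64) and ATF5 204998_s_at (0.09 to 1.61) lie above 0.

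**Figure D4:**
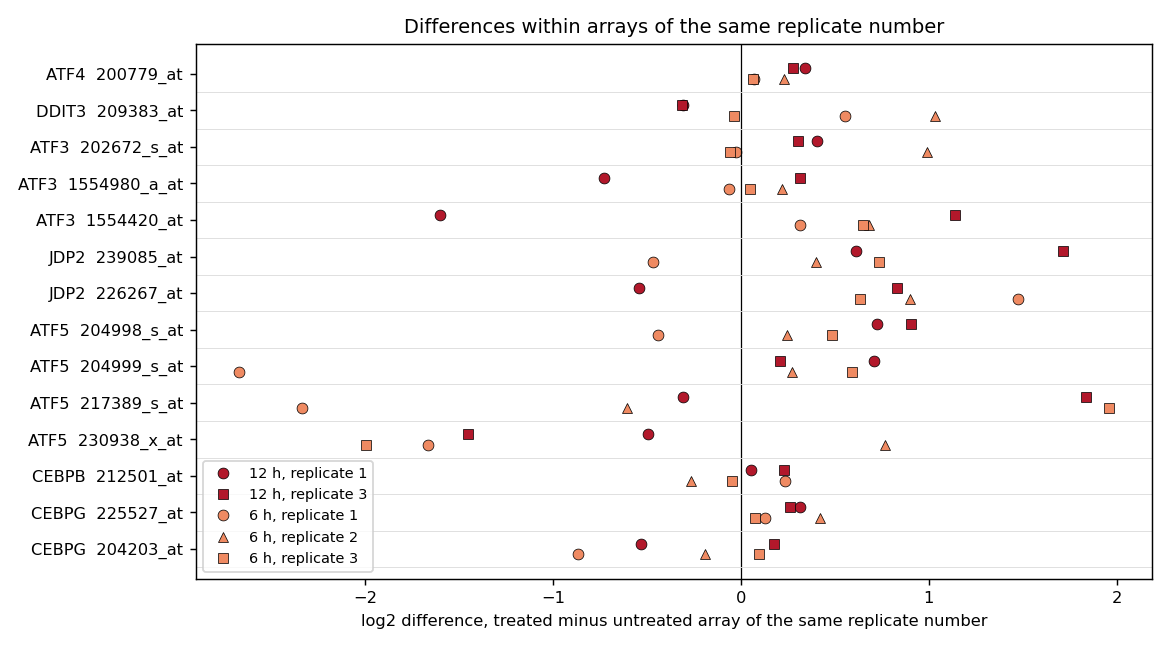
Log2 differences from the untreated array of the same replicate number (horizontal axis) for all 14 probe sets, with 12 h in 2 pairs and 6 h in 3. ATF4 and CEBPG 225527_at lie above 0 in every pair, from 0.06 to 0.34 and from 0.07 to 0.42, while DDIT3 is near -0.31 in both 12 h pairs and between -0.04 and 1.03 in the 6 h pairs.

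Members were compared with each other over the 8 arrays, which share their replicate numbers and, within a group, their treatment, so these correlations of log2 signal are given as descriptions. ATF4 had a Pearson correlation of 0.92 with CEBPG and 0.85 with ATF3 by the brightest probe sets, and 0.93 and 0.83 after each replicate number was centred. ATF3 and CEBPG had 0.91, and 0.94 after centring. ATF4 and DDIT3 had -0.10, and -0.09 after centring. ATF4 with ATF5 gave -0.33, and 0.85 after centring, and ATF4 with JDP2 gave -0.58, and 0.83 after centring, so for these dimmer genes the sign turned once the replicate numbers were taken out. ATF4 with CEBPB gave 0.74, and 0.03 after centring. Between probe sets of 1 gene the correlation was -0.66 and -0.58 for ATF3 202672_s_at with 1554980_a_at and 1554420_at, and -0.04 and 0.00 after centring, so the negative relation went with the replicate numbers. Those other 2 ATF3 probe sets had 0.96 with each other, and 0.95 after centring. The CEBPG probe sets had 0.49, and -0.33 after centring, and the JDP2 probe sets -0.41, and -0.08 after centring. Among the 4 ATF5 probe sets the correlations ran from 0.22 to 0.88, and from -0.06 to 0.77 after centring.

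The genes whose pattern over the 8 arrays was most like that of ATF4 were FHIP2A with a correlation of 0.98, RAP1GDS1 with 0.97 and EIF4B, a translation initiation factor, with 0.97. After the replicate numbers were centred these were 0.95, 0.89 and 0.88. ATF4 had 160 genes above a correlation of 0.9 among the 12063 genes tested. For DDIT3 the nearest were OGG1, a DNA repair glycosylase, with 0.94, CAMKK2, a calcium-dependent kinase, with 0.94 and DHX32 with 0.93, and 0.93, 0.94 and 0.91 after centring. DDIT3 had 5 genes above 0.9.

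The wider pathway was described by lists, each gene by its brightest probe set, and 0 genes of any list passed the test in limma. Of 44 effector targets of ATF4 and CHOP, 43 had a probe set of their own and 41 were tested. At 12 h 35 of the 41 had a difference from untreated above 0, with a median log2 difference of 0.21, against 59.9% of all 12063 genes and a median of 0.08. At 6 h it was 19 of 41 with a median of -0.02, against 52.96% of all genes and a median of 0.02. Between 12 h and 6 h it was 35 of 41 with a median of 0.24, against 57.2% of all genes and a median of 0.06. With the replicate block 33 of 41 were above 0 at 12 h against untreated, with a median of 0.16, against 57.4% of all genes and a median of 0.04. For 12 h against 6 h the block gave 26 of 41 with a median of 0.12, against 53.1% of all genes and a median of 0.02. A positive 12 h median was not particular to the effectors. The 7 osteoblast lineage markers had a median of 0.21 at 12 h against untreated, with 5 above 0, and 0.07 with the block. Between 12 h and 6 h their median was 0.12, and -0.02 with the block. For all probe sets past a filter at the 75th percentile, the median at 12 h against untreated was 0.12. The named effectors differed in how far their pairs of arrays agreed. ASNS, which makes asparagine, had 12 h differences of 0.38 and 0.56 in replicates 1 and 3 and 6 h differences of -0.01, 0.53 and -0.12 in replicates 1, 2 and 3. SLC7A11, the cystine importer, had 0.44 and 1.13 at 12 h and 0.47, -0.51 and -0.05 at 6 h. The aminoacyl-tRNA synthetase gene CARS1 had 0.44 and 0.18 at 12 h, and GARS1, of the same class, had 0.50 and 0.42. At 6 h the secreted glycoprotein gene STC2 had 2.65 in replicate 1 and 0.11 and 0.19 in replicates 2 and 3, so replicate 1 carried its group difference. SHMT2, of mitochondrial serine metabolism, had -0.61, -0.55 and 0.04 at 6 h.

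The genes upstream of ATF4, the eIF2 kinases, the phosphatase subunits that reverse them, the eIF2B exchange factor and the mitochondrial relay, were all tested, 14 of 14. At 12 h 9 had a difference from untreated above 0, with a median of 0.11 (6 and -0.04 with the block), and at 6 h 9 did, with a median of 0.13. The shares and medians over all genes are those given for the effectors. DELE1, which carries mitochondrial stress to the kinase HRI, had 79.9 and 40.6 at 12 h, 48.1, 32.4 and 42.5 at 6 h and 94.5, 110.1 and 79.9 in untreated cells. All 3 of its 6 h arrays lay below all untreated arrays, with a log2 difference of -1.22 ± 0.43 (SE) and an unadjusted p of 0.0144 that did not pass limma's adjustment. Its 12 h difference was -0.72 ± 0.48 (SE). Within replicates 1, 2 and 3 the 6 h difference was -0.97, -1.76 and -0.91, and within replicates 1 and 3 the 12 h difference was -0.24 and -0.98. PPP1R15B, a phosphatase subunit, had 0.42 ± 0.31 (SE) at 12 h and 0.46 ± 0.27 (SE) at 6 h. Its 12 h difference was 0.23 and 0.19 within replicates 1 and 3, and 0.25 with the block. EIF2AK2, the double-stranded RNA sensor, had 0.37 ± 0.28 (SE) at 12 h, and EIF2B4 had -0.38 ± 0.31 (SE). With the block they had 0.27 and -0.30.

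Among bZIP partners of the C/EBP, ATF and CREB families, 18 of 22 genes were tested. Of these, 13 had a difference from untreated above 0 at 12 h and 10 at 6 h, with medians of 0.09 and 0.04. Over all genes tested the shares were 59.9% and 52.96%, with medians of 0.08 and 0.02. With the block 11 were above 0 at 12 h, with a median of 0.08, against 57.4% of all genes and a median of 0.04. ATF6, the membrane-bound sensor of endoplasmic reticulum stress, had 0.55 ± 0.29 (SE) at 6 h, and 1.02, 0.46 and 0.18 within replicates 1, 2 and 3. XBP1, the target of the parallel IRE1 branch, had -0.35 ± 0.23 (SE) at 6 h. At 12 h CREB3L1, CREB3L2 and CREB5 had 0.34 ± 0.28, 0.40 ± 0.30 and 0.40 ± 0.44 (SE), and CREBZF had -0.35 ± 0.33 (SE). Within replicates 1 and 3 CREB5 had 0.03 and -0.11, so its group value was not seen in the pairs, and the block gave 0.15. CREB3L1 had 0.57 and 0.08, CREB3L2 had 0.49 and 0.37, and CREBZF had -0.28 and -0.18.

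Of 20 AP-1, BATF, MAF and NRF partners, 14 were tested. Of these, 8 were above 0 at 12 h and 7 at 6 h, with medians of 0.10 and 0.00, against 59.9% and 52.96% of all genes. With the block 8 were above 0 at 12 h, with a median of 0.20, against 57.4% of all genes. MAFG, a small MAF partner of the NRF factors, had 0.67 ± 0.46 (SE) at 12 h and 0.69 ± 0.41 (SE) at 6 h. JUN, JUND and NFE2L1 had 0.26 ± 0.26, 0.37 ± 0.35 and 0.38 ± 0.28 (SE) at 12 h, and FOSL2 had -0.47 ± 0.27 (SE) at 6 h. Within replicates 1 and 3 the 12 h differences were 0.07 and 0.44 for JUN, 0.56 and 0.08 for JUND and 0.54 and 0.32 for NFE2L1. The regulators of ATF4 and CHOP proteins, all 7 tested, were above 0 in 6 cases at 12 h and 6 at 6 h, with medians of 0.15 and 0.15, against 59.9% and 52.96% of all genes. With the block 5 of 7 were above 0 at 12 h against untreated, with a median of 0.07, and 2 of 7 at 12 h against 6 h, with a median of -0.12. The block's shares over all genes were 57.4% and 53.1%. Among them BTRC and FBXW11, which mark ATF4 for degradation, had 0.49 ± 0.39 and 0.45 ± 0.34 (SE) at 12 h. The block gave 0.50 for BTRC and 0.19 for FBXW11, whose pairs had 0.24 and 0.04. The acetyltransferase gene CREBBP had 0.20 ± 0.38 (SE) at 12 h without the block and -0.12 ± 0.16 (SE) with it, and both its pairs were below 0, at -0.20 and -0.12. Its relative EP300 had 0.53 ± 0.37 (SE) at 6 h, of which replicates 1, 2 and 3 had 1.36, -0.06 and 0.29, and EGLN3 had -0.39 ± 0.51 (SE) at 12 h.

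**Figure D5:**
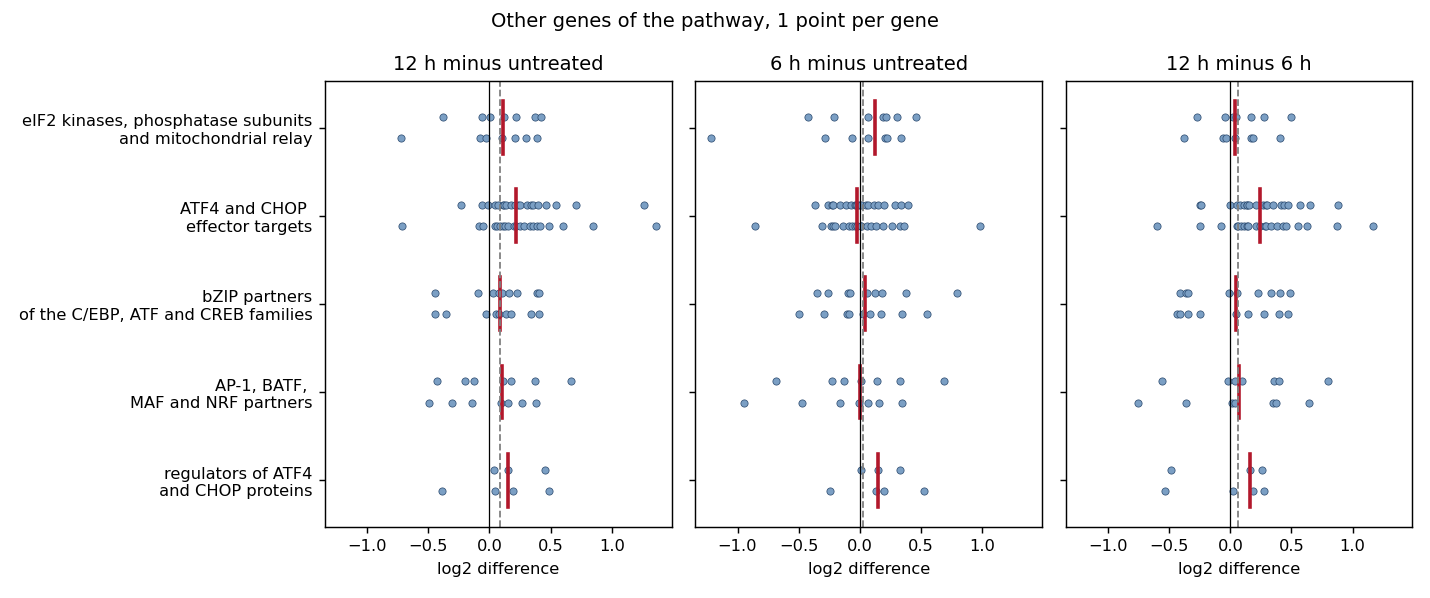
Log2 differences (horizontal axis) for 12 h minus untreated, 6 h minus untreated and 12 h minus 6 h, with 1 point for each tested gene of a pathway list, a red bar for the list's median and a dashed line for the median of all genes tested. The median of the ATF4 and CHOP effector targets is 0.21, -0.02 and 0.24 in the 3 panels, against 0.08, 0.02 and 0.06 for all genes.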

How the data were processed

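RNA from 8 Saos-2 samples was measured on Affymetrix 3′ arrays, 1 per sample. The authors deposited a linear intensity for each probe set, and the submitters' processing notes name MAS5. Version and settings of that step are not given in the sources used here. Such signals of dim probe sets are noisy.

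The table held 54675 probe sets. After 62 controls were left out, 41091 had 1 gene symbol, 1801 several and 11721 none in the platform annotation. Signals under the 10th percentile (2.39) were set to it, then log2 was taken, so differences of dim probe sets can be understated or change sign. A probe set was tested if its mean log2 signal exceeded the median of all (4.22), which left 27306. Groups came from the labels. R 4.3.3 and limma 3.58.1 (lmFit, with eBayes moderating variances along a trend) fitted the 3 groups together, and two-sided p-values were adjusted by Benjamini-Hochberg over all probe sets tested, at 0.05. The steps were tested on simulated data.

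Deviations from the group means correlated at 0.20 to 0.62 in the 7 same-numbered pairs of arrays and at -0.53 to 0.25 in the 14 others, which was read as pairing of the samples by number, and each fit was repeated with the number as a block. Deviations of the 2 arrays at 12 h mirror each other, which builds in some of this gap.

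Named genes were all probe sets of the members and, of each list with no gene past the threshold, up to 4 genes with the smallest p at 12 h and up to 2 at 6 h. The lists were written from textbook knowledge, and the members and lists were chosen with earlier results of these data known. Genes of the lists without a probe set of their own, such as BBC3, ATF1, MAFK and BGLAP, were not analysed here, and a detail of the genotype is not reported here. Alternatives changed the normalization, centring, floor, filter, probe sets, variance model and arrays used. Precision is limited by how few arrays there are.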

Additional observations from a re-analysis of the deposited data

How the results depend on the processing

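No alternative gave a called probe set in any of the 3 comparisons. With the replicate block, which uses the pairing by number, the counts of calls were 0, 0 and 0, and JDP2 turned sign, to 1.21 for 12 h against untreated and 0.99 for 12 h against 6 h. Values named here are log2 differences of the brightest probe set of a gene. Quantile normalization gave 0.23 for DDIT3 and 0.032 for JDP2 at 12 h against untreated. Centring each array on its median moved the median of all probe sets to 0.59 at 12 h against untreated and 0.58 at 12 h against 6 h, and gave 0.42 for DDIT3 and 0.35 for JDP2 against untreated and 0.14 for JDP2 against 6 h, all below that shift. A floor at a signal of 1 gave 0.094 for JDP2 at 12 h. The mean over the probe sets of a gene gave -0.33 for ATF3 and -0.14 for ATF5 at 12 h, -0.45 for ATF5 and -0.056 for CEBPG at 6 h, and -0.63 for ATF3 at 12 h against 6 h. Array weights gave 0.045 for JDP2 at 12 h, 0.016 for CEBPB and -0.084 for JDP2 at 6 h, and 0.13 for JDP2 at 12 h against 6 h. Without both arrays numbered 2, with or without the block, JDP2 had 1.16 at 12 h and 1.03 at 12 h against 6 h, and at 6 h ATF3 had -0.041 and CEBPB 0.094.

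With each array left out in turn, 12 h against untreated ranged from -1.84 to 1.16 for JDP2 and from -0.56 to 0.24 for DDIT3. At 6 h against untreated the ranges were -0.020 to 0.54 for ATF3, -0.047 to 0.23 for ATF4, -0.038 to 0.41 for CEBPG, -0.34 to 0.46 for ATF5, -0.15 to 0.20 for CEBPB and -1.39 to 1.62 for JDP2. For 12 h against 6 h JDP2 ranged from -1.81 to 1.03. Of these, ATF3, ATF4 and CEBPG at 6 h were below 0 only when untreated replicate 2 was the array left out. Leaving out a 12 h array leaves that group with 1 sample, assumed to vary like the others. The cause of these turns was not tested. The 12 h group holds replicates 1 and 3 alone, while the untreated and 6 h groups it was compared with also hold replicate 2.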
